A study of Oryza sativa with 9 samples.

Results

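The ABC transporter genes described here were the entries of the deposited expression table whose description holds the words ABC transporter or ABC-2 type transporter and whose mean over the 9 libraries was at least 0.5 FPKM, the number of sequenced fragments of a gene scaled by its exon length and by the mapped fragments of the library. Of 35 entries with these words, 17 passed the limit on the mean and are the members, and they were tested among 22946 entries that passed the same limit of 38652 in the whole table. The words select by annotation, so many ABC genes described by other words, such as pleiotropic drug resistance protein, are not members and are given beside them.

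ABC transporters use ATP, bound and hydrolysed by a pair of conserved nucleotide-binding domains, to move substrates across membranes. In plants they carry hormones such as auxin and abscisic acid, lipids of the leaf surface and conjugated toxins bound for the vacuole. Some proteins of the superfamily, the ABCF type and SufC, hold the ATP-binding domains without a membrane part and work in the cytosol or in the plastid stroma instead of carrying a substrate.

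RNA was taken from leaves of seedlings of IR64, an *indica* rice that does not tolerate submergence, and was sequenced in 3 groups of 3 libraries. PBT plants were sprayed with 200 mg/L of PB (paclobutrazol, an inhibitor of GA synthesis), GAT plants with 100 mg/L of GA (gibberellin) and Control plants with the solvent alone at 0.1%, which the sample labels call ethanol and the methods of the study call methanol. All plants received 25 mL of spray at 20 days after germination, 2 days before they were put under 100 cm of water, and all 3 groups were sampled at 4 days of submergence. The comparisons PBT/Control, PBT/GAT and GAT/Control thus ask what each spray changed in submerged leaves, and none of them compares submerged with unsubmerged plants. By the methods, the PB and GA stocks were dissolved in ethanol. If Control received methanol, the comparisons with Control differ in solvent as well, and compound and solvent cannot be told apart there.

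The libraries were identified by the header of the table, because 4 of the 9 separately deposited library files hold the values of another library than their label. The file labelled GAT 1 holds the values of PBT 3 in the table, GAT 2 those of GAT 1, GAT 3 those of GAT 2, and PBT 3 those of PBT 2. No file holds the GAT 3 values of the table, and the file labelled PBT 2 holds those of PBT 2 as well. The leaf markers were high in every library: the 3 entries of the ribulose bisphosphate carboxylase small chain summed to between 6183 and 13842 FPKM, and the 12 entries of the chlorophyll A-B binding protein to between 4750 and 13317 FPKM. Both sums were higher in every Control library than in any PBT or GAT library, with the small chain at 8655, 9091 and 8887 FPKM in PBT, 6428, 6183 and 6392 FPKM in GAT, and 13842, 13212 and 13141 FPKM in Control. The part of these marker levels in the results below was not tested. The files used give no read counts, so no counting interval is given.

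The 17 members spread over the families of the superfamily, as far as the KEGG orthologs in the table place them. There were 6 ABCB members of the MDR (multidrug resistance) type, 3 ABCF, 3 ABCG, 2 ABCC, 1 SufC and 1 ortholog of a bacterial transporter, and 1 further member is counted but not described here. By their locus names 5 were on chromosome 1, 3 on chromosome 5, 2 each on chromosomes 3, 9 and 11, and 1 each on chromosomes 2, 6 and 8. The GO terms of the table place 8 in the plasma membrane, 5 in the vacuolar membrane and 3 in the chloroplast, and 2 carry terms of auxin transport. Mean levels ran over the 9 libraries between 0.729 and 43.7 FPKM, 12 members were at 5 FPKM or more, and none was listed at 0 in any library.

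**Figure D1:**
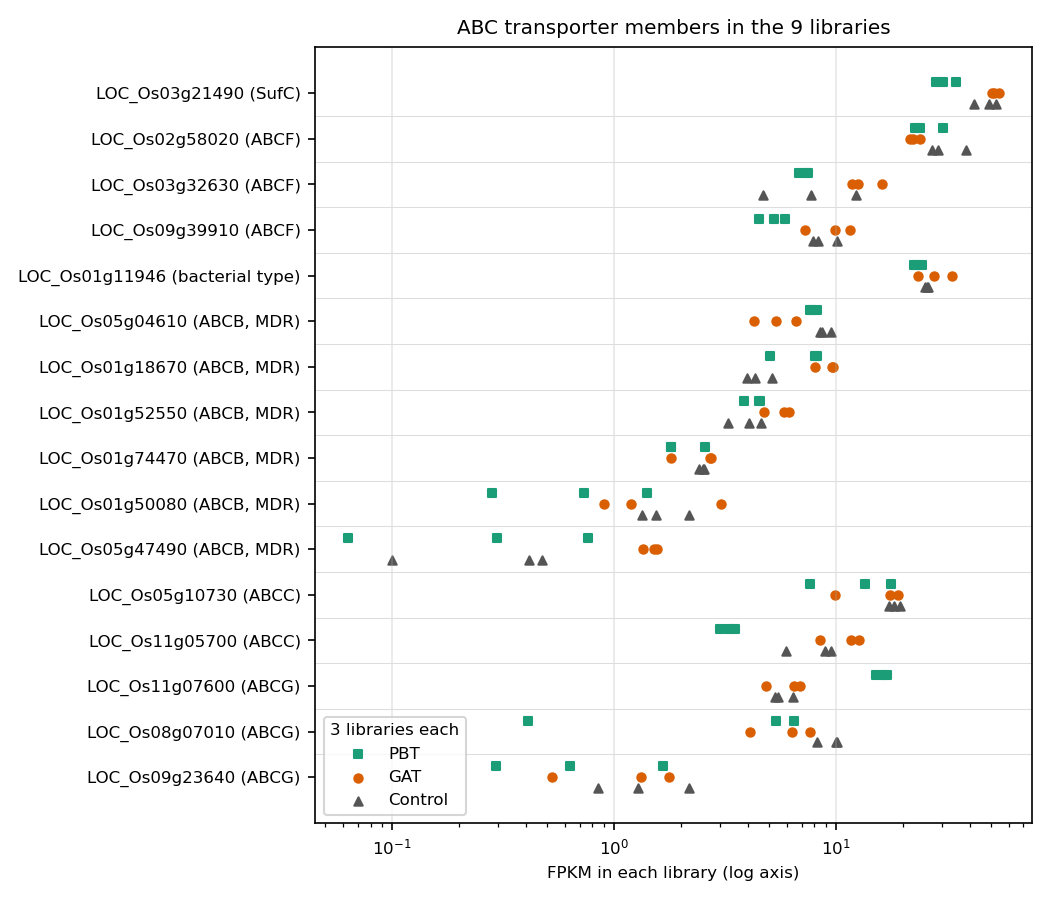
FPKM (log axis) of the ABC transporter members, all but 1, in each of the 9 libraries, with squares for PBT, circles for GAT and triangles for Control, grouped by family. The PBT squares of LOC_Os11g07600 lie between 15.2 and 17.0 FPKM, above the 6 other libraries, and those of LOC_Os11g05700 lie between 3.01 and 3.53 FPKM, below them.

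By both limits given next, 1 member was higher and 1 lower in PBT leaves than in both other groups. No member passed both limits in GAT leaves against Control leaves. A member was called when its adjusted p (limma on log2(FPKM + 1), Benjamini-Hochberg over all 22946 entries) was under 0.05 and its log2 fold change reached 1 or -1, a linear fold of 2 on the FPKM + 1 scale, which understates changes of genes with low FPKM. In PBT/Control 2 of 17 members were called, or 11.8%, against 4.34% of all entries tested, 1 higher (*LOC_Os11g07600*) and 1 lower (*LOC_Os11g05700*). In PBT/GAT the same 2 genes were called in the same directions, against 6.30% of all entries. In GAT/Control 0 were called, against 8.42% of all entries, while 5 had an unadjusted limma p under 0.05. That is 29.4% of the members and 25.1% of all entries, and in the other comparisons the same count was 6 in PBT/Control (35.3%, against 19.8% of all entries) and 7 in PBT/GAT (41.2%, against 23.3%). The unadjusted counts in GAT/Control and PBT/GAT include *LOC_Os05g47490*, which passed the limit on the mean through its GAT libraries. Nothing is read from these unadjusted counts. The 3 comparisons share libraries, so that a call in both PBT comparisons rests on the same 3 PBT libraries. Since RNA was taken from whole leaves, fewer cells of a type and less RNA per cell cannot be told apart in any of these levels.

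The counts by adjusted p alone were 3 of 17 in PBT/Control (17.6%, against 6.37% of all entries), 3 in PBT/GAT (against 9.37%) and 1 in GAT/Control (5.88%, against 12.0%). The added members were *LOC_Os03g21490* in both PBT comparisons and *LOC_Os01g18670* in GAT/Control. The signs of the fold changes were counted as a description, not a test. In PBT/Control 13 of 17 members were negative, beside 12121 of the 22946 entries tested. The median log2 fold change was -0.20, beside -0.04 over all entries. In PBT/GAT 14 were negative, beside 12484 of all entries, with a median of -0.31 beside -0.07. In GAT/Control 10 were positive, beside 11905 of all entries, with a median of 0.10 beside 0.03. That small median came to 0.0065 with quantile normalization of the libraries. The PBT/GAT and GAT/Control counts and medians include *LOC_Os05g47490*, which passed the limit on the mean through its GAT libraries. Nothing is read from them.

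Libraries that did not overlap between groups were counted as well. All 3 PBT libraries lay outside the range of the Control libraries for 7 members (1 above, 6 below), which is 41.2% of the members and 26.3% of all entries. Between PBT and GAT 8 members did not overlap (2 above, 6 below), 47.1% of the members and 30% of all entries. Between GAT and Control 6 did not (3 above, 3 below), 35.3% of the members and 29.5% of all entries. These shares are descriptions of the members beside all entries, not tests. *LOC_Os05g47490* is among the 3 above in GAT/Control and the 6 below in PBT/GAT. It passed the limit on the mean through its GAT libraries, so the limit favoured its place there. Nothing is read from the GAT/Control and PBT/GAT shares.

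**Figure D2:**
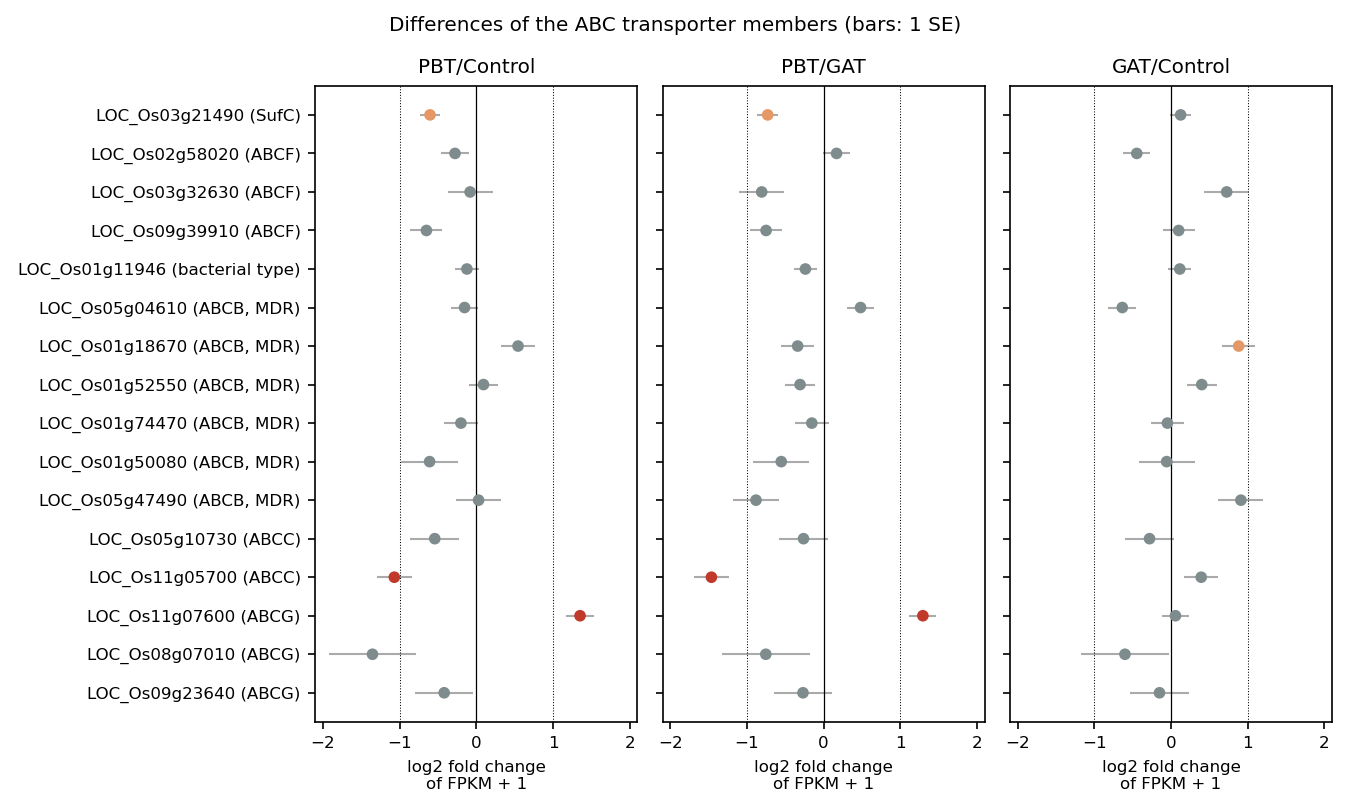
Log2 fold change of FPKM + 1 (horizontal axis, bars are 1 SE of the limma fit) of the members, all but 1, in PBT/Control, PBT/GAT and GAT/Control. Red points passed both the adjusted p and the fold limit (dotted lines), orange points the adjusted p alone, and grey points neither; LOC_Os11g07600 at 1.35 and LOC_Os11g05700 at -1.07 are the red points of PBT/Control.

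Among the 3 ABCG members, which are half-size or full-size transporters of the plasma membrane and other membranes, *LOC_Os11g07600* was the gene that rose. Its GO terms in the table name the plasma membrane and abscisic acid transport. It stood at 16.3, 17.0 and 15.2 FPKM in the PBT libraries, 6.85, 6.50 and 4.84 FPKM in the GAT libraries and 5.48, 6.42 and 5.32 FPKM in the Control libraries. All PBT libraries were thus above all others by more than the spread within any group, and the GAT and Control libraries overlapped. The group means were 16.2 ± 0.915 FPKM in PBT, 6.06 ± 1.08 FPKM in GAT and 5.74 ± 0.593 FPKM in Control (SD, n = 3 each), so that PBT was 2.82 times Control and 2.67 times GAT. The log2 fold change was 1.35 in PBT/Control (SE 0.18, limma adjusted p = 0.003) and 1.29 in PBT/GAT (adjusted p = 0.00279), against 0.06 in GAT/Control (adjusted p = 0.88). Both calls held in all 9 fits that left out 1 library, with an adjusted p of at most 0.0172. These include the fits without GAT 1, GAT 2, GAT 3 or PBT 3, whose files disagree with their labels. Each fit dropped 1 library and kept the labels of the rest, so a mislabelling was not tested.

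No other member followed this pattern closely. Over the 9 libraries the members most like *LOC_Os11g07600* in log2(FPKM + 1) were *LOC_Os05g04610*, with a Pearson r of 0.22, *LOC_Os01g18670*, with 0.11, and *LOC_Os01g52550*, with -0.09. These are descriptions over libraries that share their groups.

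The other ABCG members were not called. *LOC_Os08g07010* had 5.39, 6.49 and 0.411 FPKM in PBT, 4.10, 6.34 and 7.65 FPKM in GAT, and 10.0, 10.1 and 8.20 FPKM in Control. All Control libraries were above the 6 others, and the third PBT library was far below the other PBT libraries. Its log2 fold change in PBT/Control was -1.35 (SE 0.57, adjusted p = 0.235) and was -0.59 (adjusted p = 0.321) without PBT 3. *LOC_Os09g23640*, whose terms name the vacuolar membrane, was low, at 0.631, 0.294 and 1.65 FPKM in PBT, 1.33, 1.76 and 0.528 FPKM in GAT and 2.18, 0.845 and 1.29 FPKM in Control, and its groups overlapped in every comparison.

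The ABCC type, whose plant members move glutathione conjugates, folates and metal complexes into the vacuole, had 2 members, and 1 of them fell in PBT. *LOC_Os11g05700*, assigned to the vacuolar membrane and to xenobiotic transport by its GO terms, had 3.01, 3.30 and 3.53 FPKM in the PBT libraries, 11.7, 8.46 and 12.7 FPKM in the GAT libraries and 5.96, 9.45 and 8.93 FPKM in the Control libraries. Every PBT library was below every other library. The means were 3.28 ± 0.259 FPKM in PBT, 10.9 ± 2.20 FPKM in GAT and 8.12 ± 1.88 FPKM in Control (SD, n = 3 each), a level in PBT of 0.404 times Control and 0.300 times GAT.

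For this gene the 2 PBT comparisons differed in how firmly they held. In PBT/GAT the log2 fold change was -1.46 (limma adjusted p = 0.00492), and the call held in all 9 fits with a library left out. In PBT/Control it was -1.07 (SE 0.23, adjusted p = 0.0267), close to the fold limit, and the call held in 4 of those 9 fits. It was lost without PBT 1 (adjusted p = 0.0843), PBT 2 (0.0817), PBT 3 (0.0681), Control 2 or Control 3 (0.0848 each), with log2 fold changes between -1.11 and -0.96. GAT and Control overlapped, with a log2 fold change of 0.39 (adjusted p = 0.329).

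The other ABCC member, *LOC_Os05g10730*, shares its locus name with further entries of the table and was among the 5 highest members. It had 17.7, 13.5 and 7.64 FPKM in PBT, 17.4, 9.91 and 19.1 FPKM in GAT, and 17.4, 19.5 and 18.2 FPKM in Control. The Control libraries lay close together, the PBT and GAT libraries lay within their range or below it, and its adjusted p was at least 0.417 in every comparison. Its log2 fold changes had the same sign as those of *LOC_Os11g05700* in both PBT comparisons, at -0.54 in PBT/Control and -0.26 in PBT/GAT. With a library left out the PBT/GAT value ran between -0.54 and 0.0475, so its sign did not hold in every fit.

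**Figure D3:**
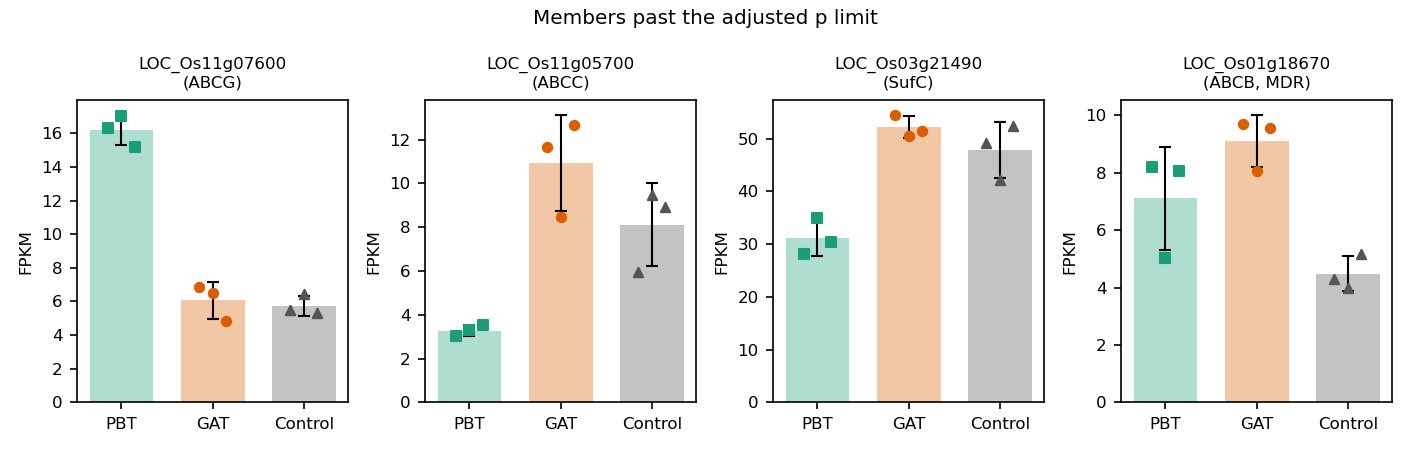
FPKM (vertical axis, from 0) of the 4 members with an adjusted p under 0.05 in at least 1 comparison, with bars for the group means, error bars for 1 SD and points for the 3 libraries of PBT, GAT and Control. LOC_Os11g07600 averaged 16.2 FPKM in PBT against 5.74 FPKM in Control, and LOC_Os11g05700 averaged 3.28 FPKM in PBT against 8.12 FPKM in Control.

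The soluble members of the superfamily were the most abundant group. *LOC_Os03g21490* encodes an ortholog of SufC, the ATPase of the plastid machine that assembles iron-sulfur clusters, and was the highest member. It had 28.1, 34.9 and 30.4 FPKM in PBT, 54.5, 50.5 and 51.4 FPKM in GAT and 49.1, 42.1 and 52.4 FPKM in Control. All PBT libraries were below all others. The level in PBT was 0.650 times that in Control and 0.597 times that in GAT, which is short of the fold limit. The log2 fold change was -0.73 in PBT/GAT (limma adjusted p = 0.0123, under 0.05 in 9 of 9 fits with a library left out) and -0.60 in PBT/Control (adjusted p = 0.0357, under 0.05 in 3 of 9, with a range between 0.0263 and 0.0934). In GAT/Control it was 0.13 (adjusted p = 0.621).

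The 3 ABCF members are soluble ATPases whose relatives in yeast and animals act at the ribosome. *LOC_Os02g58020*, the ABCF3 ortholog, had 23.9, 22.8 and 30.4 FPKM in PBT, 22.3, 21.6 and 24.0 FPKM in GAT and 28.7, 38.7 and 27.1 FPKM in Control. Its GAT libraries were all below the Control libraries, with a log2 fold change of -0.45 (adjusted p = 0.16). *LOC_Os09g39910*, the ABCF2 ortholog, had 4.49, 5.25 and 5.92 FPKM in PBT, 7.28, 9.92 and 11.5 FPKM in GAT and 8.30, 7.86 and 10.1 FPKM in Control.

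*LOC_Os09g39910* thus had its PBT libraries below all others, as SufC had, but did not pass the test, with log2 fold changes of -0.65 in PBT/Control (adjusted p = 0.124) and -0.75 in PBT/GAT (adjusted p = 0.0609). *LOC_Os03g32630*, the ABCF1 ortholog, had 7.33, 6.83 and 7.51 FPKM in PBT, 16.1, 11.8 and 12.6 FPKM in GAT and 4.68, 7.70 and 12.3 FPKM in Control. Its Control libraries were the most scattered, and the third lay within the GAT range. Its GAT/Control value was 0.73 on the log2 scale (adjusted p = 0.164), and without Control 3 it was 1.03 (adjusted p = 0.038), which would be called. The PBT libraries were all below the GAT libraries, with a log2 fold change of -0.81 (adjusted p = 0.136).

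*LOC_Os01g11946*, an ortholog of a bacterial transporter that is assigned to the chloroplast, had 24.5, 23.3 and 22.5 FPKM in PBT, 23.3, 27.6 and 33.4 FPKM in GAT and 26.0, 25.1 and 25.7 FPKM in Control. Its PBT libraries lay just below the Control libraries, a log2 fold change of -0.12 (adjusted p = 0.721).

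The ABCB members of the MDR type, full-size transporters of which some carry auxin, were the largest family. In GAT/Control 1 of 6 passed the adjusted p, beside 12.0% of all entries, and nothing is read from that count. *LOC_Os01g18670* had 8.22, 5.05 and 8.07 FPKM in PBT, 9.71, 8.05 and 9.56 FPKM in GAT and 4.31, 3.97 and 5.18 FPKM in Control. All GAT libraries were above all Control libraries, and GAT averaged 2.03 times Control. The log2 fold change was 0.88 (SE 0.22, limma adjusted p = 0.0322), below the fold limit, and the adjusted p stayed under 0.05 in 4 of 9 fits with a library left out (0.0204 to 0.0885). In PBT/Control it was 0.54 (adjusted p = 0.207). A further entry of the table has the same locus name.

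*LOC_Os05g04610* had the opposite order, with 7.63, 7.74 and 8.24 FPKM in PBT, 6.61, 4.27 and 5.38 FPKM in GAT and 9.48, 8.68 and 8.46 FPKM in Control. The 3 groups did not overlap, and GAT was the lowest and Control the highest. The log2 fold change was -0.63 in GAT/Control (adjusted p = 0.0572), 0.48 in PBT/GAT (adjusted p = 0.15) and -0.15 in PBT/Control, and it was not called. *LOC_Os01g52550* had 4.56, 4.48 and 3.84 FPKM in PBT, 6.16, 5.83 and 4.73 FPKM in GAT and 4.08, 4.62 and 3.26 FPKM in Control. Its GAT libraries were above all others, by a log2 fold change of 0.40 against Control (adjusted p = 0.242). A further entry has its locus name, and with the entries summed the value was 0.17 in GAT/Control (adjusted p = 0.735), and -0.14 in PBT/Control, against 0.09 for the entry alone. *LOC_Os01g74470* stayed between 1.80 and 2.73 FPKM in the 9 libraries.

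The members whose GO terms name auxin efflux, *LOC_Os01g50080* and *LOC_Os05g47490*, were among the lowest. *LOC_Os01g50080* had 0.281, 1.40 and 0.733 FPKM in PBT, 3.04, 0.902 and 1.19 FPKM in GAT and 1.33, 1.55 and 2.18 FPKM in Control, with overlap in every comparison, and its locus name too has a further entry. *LOC_Os05g47490* had 0.0633, 0.298 and 0.764 FPKM in PBT, 1.36, 1.57 and 1.52 FPKM in GAT and 0.0999, 0.413 and 0.474 FPKM in Control. Its GAT libraries were above the 6 others, at 4.50 times the Control mean and with PBT at 0.253 times GAT. On the log2(FPKM + 1) scale the difference was 0.91 in GAT/Control (adjusted p = 0.0869) and -0.88 in PBT/GAT (adjusted p = 0.106), so that neither passed the test. This gene, at a mean of 0.729 FPKM, was within the limit of 0.5 FPKM through the GAT libraries.

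The members with all 3 libraries of a group outside all 6 others were counted for each group. For PBT there were 4 of 17, or 23.5%, against 9.73% of all entries: *LOC_Os11g07600* above, and *LOC_Os03g21490*, *LOC_Os09g39910* and *LOC_Os11g05700* below. For GAT there were 3, or 17.6%, against 15.1% of all entries, with *LOC_Os05g47490* and *LOC_Os01g52550* above and *LOC_Os05g04610* below. Since *LOC_Os05g47490* passed the limit on the mean through its GAT libraries, the limit itself favoured its place above the others, and nothing is read from the GAT count. For Control there were 2, or 11.8%, against 11.6%, with *LOC_Os05g04610* and *LOC_Os08g07010* above.

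By group means, GAT was the highest group for 10 members, Control for 6 and PBT for 1, and PBT was the lowest for 11, Control for 4 and GAT for 2. *LOC_Os05g47490*, which passed the limit on the mean through its GAT libraries, is among those highest in GAT and lowest in Control. The same counts were not made over all entries, so nothing is read from them. The summed FPKM of the 17 members was 169.2, 175.3 and 168.9 in PBT, 213.6, 202.2 and 223.8 in GAT and 197.6, 210.0 and 212.7 in Control. The PBT sums were below all others, at 171.2 ± 3.62 FPKM, against 213.2 ± 10.8 FPKM in GAT and 206.8 ± 8.06 FPKM in Control (SD, n = 3 each), with no test since the members were chosen with results known. The 3 highest members, *LOC_Os03g21490*, *LOC_Os02g58020* and *LOC_Os01g11946*, held 46.9% of the sum in PBT, 48.2% in GAT and 50.8% in Control.

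Of the 18 entries with the same words under 0.5 FPKM, 4 were listed at 0 in all 9 libraries and 14 were above 0 somewhere. The 3 just under the limit were *LOC_Os05g02750* at a mean of 0.427 FPKM, *LOC_Os08g30770* at 0.412 FPKM and *LOC_Os01g34970* at 0.340 FPKM, and the 3 just inside were *LOC_Os05g47490* at 0.729 FPKM, *LOC_Os09g23640* at 1.17 FPKM and *LOC_Os01g50080* at 1.40 FPKM. *LOC_Os05g02750* is STAR2, the membrane partner of STAR1 in a complex for aluminium tolerance of rice roots, and was at 3.84 FPKM in GAT 1 and listed at 0 in the other 8 libraries. *LOC_Os08g30770*, of the ABCA type, had 0.354, 0.521 and 0.0676 FPKM in PBT, 0.755, 0.542 and 0.862 FPKM in GAT and 0.00804, 0.320 and 0.275 FPKM in Control. *LOC_Os01g34970*, of the MDR type, ranged between 0 and 0.662 FPKM with overlap between all groups.

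Of 22 entries for ABC genes described by other words, 11 passed the limit of 0.5 FPKM. Of these 1 rose in PBT/Control (9.09%, against 4.34% of all entries), 1 fell in PBT/GAT (9.09%, against 6.30%) and 2 rose in GAT/Control (18.2%, against 8.42%), with no other calls. The median log2 fold change of the 11 was 0.52 in PBT/Control beside -0.04 over all entries, 0.31 in PBT/GAT beside -0.07, and 0.14 in GAT/Control beside 0.03. The 11 include *LOC_Os01g08260*, with group means of 0.925 FPKM in PBT, 0.440 FPKM in GAT and 0.367 FPKM in Control. It passed the limit on the mean through its PBT libraries, so nothing is read from the medians in PBT/Control and PBT/GAT. Libraries did not overlap for 7 of the 11 in PBT/Control (6 above, 1 below), 63.6% against 26.3% of all entries. In PBT/GAT this held for 5 (3 above, 2 below), 45.5% against 30%. In GAT/Control it held for 5 (4 above, 1 below), 45.5% against 29.5%. These shares are descriptions, not tests. *LOC_Os01g42410*, a pleiotropic drug resistance (full-size ABCG) gene, had 10.4, 9.61 and 6.99 FPKM in PBT, 7.28, 5.62 and 4.76 FPKM in GAT and 0.703, 1.21 and 1.83 FPKM in Control. Both treated groups were above Control in every library, by a log2 fold change of 2.17 in PBT/Control (limma adjusted p = 0.00214) and of 1.63 in GAT/Control (adjusted p = 0.0045), while PBT and GAT overlapped.

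*LOC_Os01g42380* (*OsPDR9*), also a pleiotropic drug resistance gene, had another pattern. It had 2.00, 0.777 and 0.786 FPKM in PBT, 4.54, 3.91 and 4.44 FPKM in GAT and 0.987, 1.31 and 0.529 FPKM in Control. The GAT libraries were above all others, with a log2 fold change of -1.32 in PBT/GAT (limma adjusted p = 0.0234) and of 1.46 in GAT/Control (adjusted p = 0.0118). The PBT/GAT call of *OsPDR9* was lost in 5 of 9 fits with a library left out. The 2 loci have neighbouring numbers, and how reads that fit both were divided is not given in the sources used here.

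A short list of rice ABC genes with known roles had 5 entries tested, *OsPDR9* among them, and 3 were called in PBT/GAT (against 6.30% of all entries), 1 in GAT/Control (against 8.42%) and 0 in PBT/Control (against 4.34%), where 1 had an unadjusted limma p under 0.05, as had 19.8% of all entries. The list was picked by hand and holds too few genes for its shares to be read. *OsMRP5* (*LOC_Os03g04920*), an ABCC gene whose loss lowers phytic acid in seeds, had 6.40, 6.59 and 6.31 FPKM in PBT, 14.4, 14.7 and 13.7 FPKM in GAT and 7.84, 7.61 and 7.37 FPKM in Control. The GAT libraries were above all others, with a log2 fold change of -1.04 in PBT/GAT (adjusted p = 0.00269) and of 0.83 in GAT/Control (adjusted p = 0.006, short of the fold limit). *STAR1* (*LOC_Os06g48060*), the ATP-binding partner of STAR2, had 10.1, 10.0 and 8.44 FPKM in PBT, 3.40, 0.949 and 2.94 FPKM in GAT and 6.22, 3.29 and 4.79 FPKM in Control.

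*STAR1* was thus higher in PBT than in GAT in every library, with a log2 fold change of 1.70 (limma adjusted p = 0.0157), and 0.90 above Control with an adjusted p of 0.182. *OsABCC1* (*LOC_Os04g52900*), which moves arsenic complexes into the vacuole, had 22.9, 22.4 and 23.6 FPKM in PBT, 23.1, 25.4 and 24.2 FPKM in GAT and 27.0, 26.0 and 25.7 FPKM in Control. Its treated libraries were all below the Control libraries, but by no more than 0.18 on the log2 scale (adjusted p = 0.469 in PBT/Control). *OsALS1* (*LOC_Os03g54790*), a vacuolar half-size transporter for aluminium tolerance, ranged between 14.8 and 22.0 FPKM and overlapped between all groups.

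**Figure D4:**
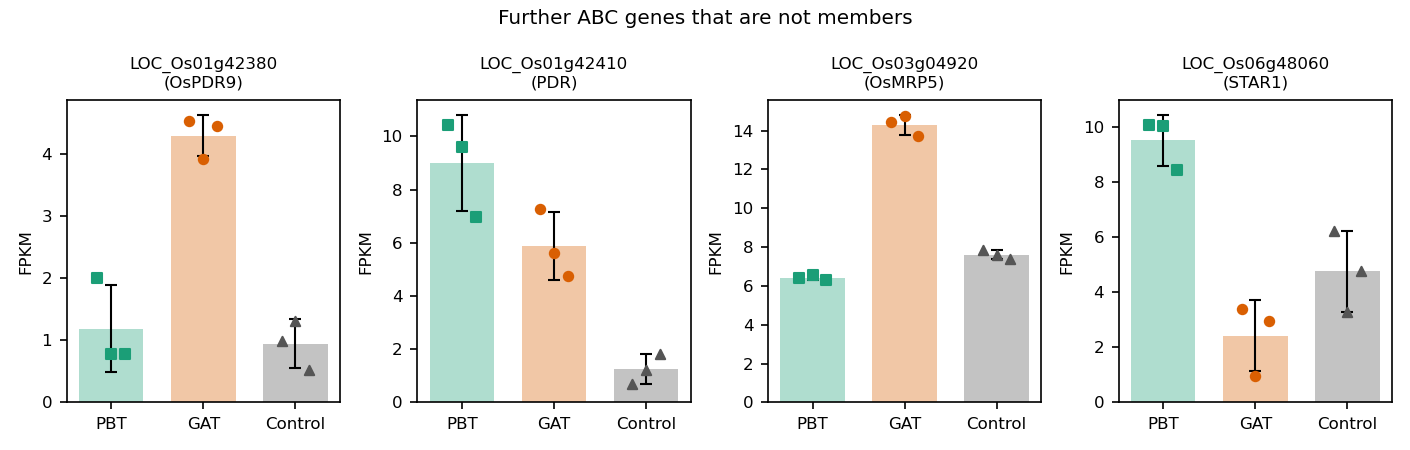
FPKM (vertical axis, from 0) of 4 ABC genes that are not members (OsPDR9 and LOC_Os01g42410 described by other words, OsMRP5 and STAR1 from the list of known roles), with bars for the group means, error bars for 1 SD and points for the 3 libraries of PBT, GAT and Control. OsPDR9 and OsMRP5 were highest in GAT, LOC_Os01g42410 was above Control in both treated groups, and STAR1 was at 8.44 to 10.1 FPKM in PBT against 0.949 to 3.40 FPKM in GAT.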

How the data were processed

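The authors deposited FPKM per gene and library. The study's methods name Tophat and Cufflinks, while assembled entries carry MSTRG numbers, the form StringTie gives. The submitters' processing notes name Bowtie 0.12.2, the IRGSP 1.0 build and also a mouse build. FPKM are not counts, so limma 3.58.1 in R 4.3.3 was fitted to log2(FPKM + 1), with 3 group means over 9 libraries, a variance trend and Benjamini-Hochberg adjustment per comparison over the 22946 entries whose mean reached 0.5 FPKM. The Cuffdiff test of the study needs reads and was not run. The fit was tested on simulated data. Members and gene lists were chosen with earlier results of these data known, and no list was tested as a set. The rule for full values was called members, the 5 highest, the 3 lowest and the 3 entries under the limit. Other members are given too, and 1 of the 5 highest counts in the totals but is not reported here. The labels do not say whether libraries of a group came from separate pots, so p measures the spread between these libraries. Alternatives changed the pseudocount, filter, scaling, libraries, replicate block, listed 0 values, shared names, variance trend and limits. FPKM depend on the whole library, so a change in abundant leaf transcripts can shift the share left to the members. No sequences or coordinates of these loci were used here.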

Additional observations from a re-analysis of the deposited data

How the results depend on the processing

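*LOC_Os11g07600* was called in PBT/Control and PBT/GAT under all alternatives run, and *LOC_Os11g05700* in PBT/GAT. Members called in PBT/Control were 2, and 1 when the fit held only the groups compared, with adjusted p under 0.01, and between 1 and 2 with a library left out; the gene lost was *LOC_Os11g05700* (adjusted p = 0.052 with only the groups compared). With the replicate number as a block the count was also 1 (adjusted p = 0.064). The numbers did not pair the libraries, since same-numbered libraries had correlations between -0.037 and 0.0124. The block changed no other call of a member by both limits. The limma adjusted p of *LOC_Os03g21490* in PBT/Control, 0.0357, was 0.1 with the block. It was 0.0919 without the variance trend and 0.0581 with only the groups compared. Of the 11 alternatives that kept all libraries and both limits, 8 left it under 0.05. Members called in GAT/Control were 0, but 1 at a pseudocount of 0.1 (*LOC_Os01g18670*) and without a fold limit, and between 0 and 1 with a library left out. Members called in PBT/GAT were 2, and 3 without the fold limit. ABC genes described by other words in GAT/Control were 2, and 1 at a mean of at least 5 FPKM and with adjusted p under 0.01. In PBT/Control they were 1, and between 1 and 2 with a library left out. In PBT/GAT they were 1, and 0 at a pseudocount of 0.1, without a filter, at a mean of at least 5 FPKM and with adjusted p under 0.01, 2 with only the groups compared, and between 0 and 2 with a library left out. The median log2 fold change of the members in GAT/Control, 0.10, was 0.11 at a pseudocount of 0.1 and at a mean of at least 5 FPKM, 0.0065 with quantile normalization, 0.018 with median scaling and between 0.037 and 0.12 with a library left out. That in PBT/GAT, -0.31, ran between -0.42 and -0.30 with a library left out. It was -0.38 at a pseudocount of 0.1, -0.27 with entries of the same name summed, -0.24 with quantile normalization and -0.20 with median scaling. The PBT/Control median, -0.20, was -0.28 at a pseudocount of 0.1, -0.16 with quantile normalization and -0.17 with median scaling. The cause of these changes was not tested. With 3 libraries a group and no counts, small differences and genes near 0 were not detectable.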

Other observations

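Several ABC entries under 0.5 FPKM, chosen after their values were seen, were above 0 in some groups and listed at 0 in others. *LOC_Os02g18180*, described as sub-family E member 1, whose relatives recycle ribosomes, had 0.686, 0.627 and 0.641 FPKM in PBT and was listed at 0 in all GAT and Control libraries. *LOC_Os01g61940*, a white-brown complex homolog, had 0.428, 0.396 and 0.737 FPKM in GAT and was listed at 0 in the others. *LOC_Os06g38950*, of the ABCA type, had 0.356, 0.771 and 0.399 FPKM in PBT and 0.624, 0.673 and 0.224 FPKM in GAT and was listed at 0 in Control. The values are low, a listed 0 can be a failed estimate, and no test was run.

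*LOC_Os04g11820*, a white-brown complex homolog above the limit, had 7.49, 5.57 and 7.20 FPKM in PBT, 1.46, 3.0 and 2.16 FPKM in GAT and 0.793, 1.41 and 4.38 FPKM in Control. Its PBT libraries were above all others, with log2 fold changes of 1.43 (limma adjusted p = 0.0781) against Control and 1.29 (adjusted p = 0.0839) against GAT, so it was not called. The white-brown complex homologs *LOC_Os04g44610* and *LOC_Os05g02890* also had their PBT libraries above all others. Their log2 fold changes against Control were 0.52 (limma adjusted p = 0.0702) and 0.70 (adjusted p = 0.16), and neither was called. The white-brown complex homolog *LOC_Os05g13520*, also above the limit, did not share this order. It had 11.7, 14.4 and 12.1 FPKM in PBT and 12.2, 11.7 and 7.00 FPKM in GAT, with 0.21 in PBT/Control (limma adjusted p = 0.663). Of all entries tested, 9.73% had the 3 PBT libraries outside all 6 others in either direction.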
